A study of Mus musculus with 12 samples.

Results

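The microglia genes described here are 33 named genes, taken from the gene count tables by symbol; all 33 were among the 24421 genes counted and all 33 were tested. Microglia are the resident macrophages of the brain parenchyma. They survive on signals through the receptor Csf1r, sense neurons through the fractalkine receptor Cx3cr1 and nucleotides through P2ry12, and mark and clear material with complement C1q, the Trem2 and Tyrobp receptor complex and lysosomal proteases. In the hippocampus they are known for contacting and trimming synapses.

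The 12 libraries are RNA pelleted with ribosomes through a sucrose cushion from the hippocampus of C57/Bl6 mice aged 6 weeks, 6 labelled control and 6 labelled fear case. The protocol text is the same for all 12: mice were housed singly, were placed for 8 min in an unfamiliar context, then for 7 min in the home cage, with the hippocampus collected at 15 min. No label says what set the control mice apart, whether the fear case mice received a shock, or the sex of the mice. The libraries are numbered within a group and are not stated to come from separate mice, so each p-value here reflects only how these samples spread, which may be technical. The gene counts of a library totalled between 18.6 M and 44.2 M, and fear case 6 was the deepest. Markers of the choroid plexus epithelium, the secretory tissue of the ventricles, set the libraries apart: the 17 genes of that list summed to 1084 to 2956 CPM in the controls, to 108 to 587 CPM in fear case 1 to 5 and to 2236 CPM in fear case 6. Ttr, the transthyretin gene that marks this epithelium, ran from 641 to 1978 CPM in controls and from 7.41 to 1319 CPM in fear case. CPM is the count per 1 M of the library size after scaling by edgeR's trimmed mean of M-values.

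No microglia gene passed the test between fear case and control. Of the 33 tested, 0 were higher and 0 lower at an adjusted p under 0.05 (quasi-likelihood test of edgeR, adjusted by Benjamini and Hochberg's method over 14564 genes), against 0.103% of all tested genes called. At an unadjusted p under 0.05 there were also 0 members, against 7.14% of all tested genes, and DESeq2 and limma-voom called 0. The lowest adjusted p among them was 0.738, for C1qc. For 0 of the 33 did the CPM of all fear case libraries lie on one side of all controls, a pattern held by 0.597% of tested genes. The median log2 fold change (fear case over control, called the log2 ratio from here on) was -0.09 over the 33, with 23 negative and 10 positive, beside a median of -0.00463 and 51.4% negative over all tested genes. That lean moved with single libraries: without control 1 the median was 0.02 and 16 of the 33 were negative, and without fear case 1 it was -0.019 and 19 were negative. In tissue RNA of this kind, fewer microglia, less RNA per cell and less RNA on ribosomes cannot be told apart.

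The promoters of 3 members that hold a purine-rich motif are shown. PU.1 (gene Spi1), the transcription factor that specifies the myeloid lineage, is known to bind motifs of this kind near such genes. Whether PU.1 has a part in the values of the members was not tested. RefSeq promoters (GRCm38.p6) were matched for 26 of the 33; Tmem119, Csf1r, Itgb2, C1qa, Tyrobp, Gpr34 and Selplg were not matched. The motif searched was GAGGAAGT on both strands, from 250 bases before to 50 bases after the start, and no other motif was searched. Printed 5′ to 3′ from 250 bases before to 20 bases after the start on the gene's own strand, with the motif in capitals, they are as follows.
C1qc, chr4:136892895-136893164, minus strand: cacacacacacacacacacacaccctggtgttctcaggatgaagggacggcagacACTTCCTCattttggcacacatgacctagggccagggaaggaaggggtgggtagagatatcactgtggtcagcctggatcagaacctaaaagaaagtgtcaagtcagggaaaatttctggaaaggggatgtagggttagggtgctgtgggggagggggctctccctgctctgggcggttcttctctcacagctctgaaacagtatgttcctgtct
Ctss, chr3:95526536-95526805, plus strand: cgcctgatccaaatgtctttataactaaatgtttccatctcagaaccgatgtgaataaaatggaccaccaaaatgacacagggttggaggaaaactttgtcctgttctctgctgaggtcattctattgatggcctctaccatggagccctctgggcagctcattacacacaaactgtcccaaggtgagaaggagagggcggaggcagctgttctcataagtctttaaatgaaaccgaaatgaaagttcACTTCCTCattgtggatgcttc
Cd53, chr3:106790130-106790399, minus strand: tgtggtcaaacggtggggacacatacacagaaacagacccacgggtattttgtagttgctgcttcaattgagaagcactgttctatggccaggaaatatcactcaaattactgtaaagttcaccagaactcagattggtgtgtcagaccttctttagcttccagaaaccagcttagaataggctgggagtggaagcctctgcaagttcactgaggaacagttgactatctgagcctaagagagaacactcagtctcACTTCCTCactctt
In all 3 the motif reads ACTTCCTC, so it lies on the strand opposite to the gene. It begins 195 bases before the start in C1qc, 2 bases before it in Ctss and 6 bases after it in Cd53. Of the 26 matched members 3 held the motif in this window, beside 3.69% of 27025 genes and 3.20% of 32851 promoters in the table; a match of letters is not a binding site. Spi1 itself, named here after its values were seen, ranged from 1.54 to 4.23 CPM in controls and from 1.06 to 2.52 CPM in fear case, with a log2 ratio of -0.44 (edgeR, adjusted p = 0.785). Its highest library was control 5, where 9 of the 33 members stood above their own mean. Its lowest was fear case 1, where 3 of the 33 did.

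Per length, the lysosomal proteases stood highest. Levels are compared between genes as CPM per kilobase of exon, using the union of GENCODE vM21 exons. Ctsd, an aspartic protease made by most cell types and not by microglia alone, averaged 30.6 CPM per kilobase, and its lowest library (22.9) lay above the highest library of any other member. Lgmn, an asparagine endopeptidase, followed at 13.9, and then Ctss, a cysteine protease typical of myeloid cells, at 6.57. From Lgmn downwards, each gene overlapped the next in the order over the 12 libraries. C1qb stood at 4.96, Sall1 at 4.46, C1qa at 3.71, Cx3cr1 at 3.47, P2ry12 at 3.43 and C1qc at 3.05. At the low end, the receptor Trem2 averaged 0.314 and Ptprc, the leukocyte phosphatase CD45, 0.0454 CPM per kilobase. Exon models that join several isoforms lower the value per length, and Ptprc has a union of 18313 bases and Trem2 of 4946 bases.

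**Figure D1:**
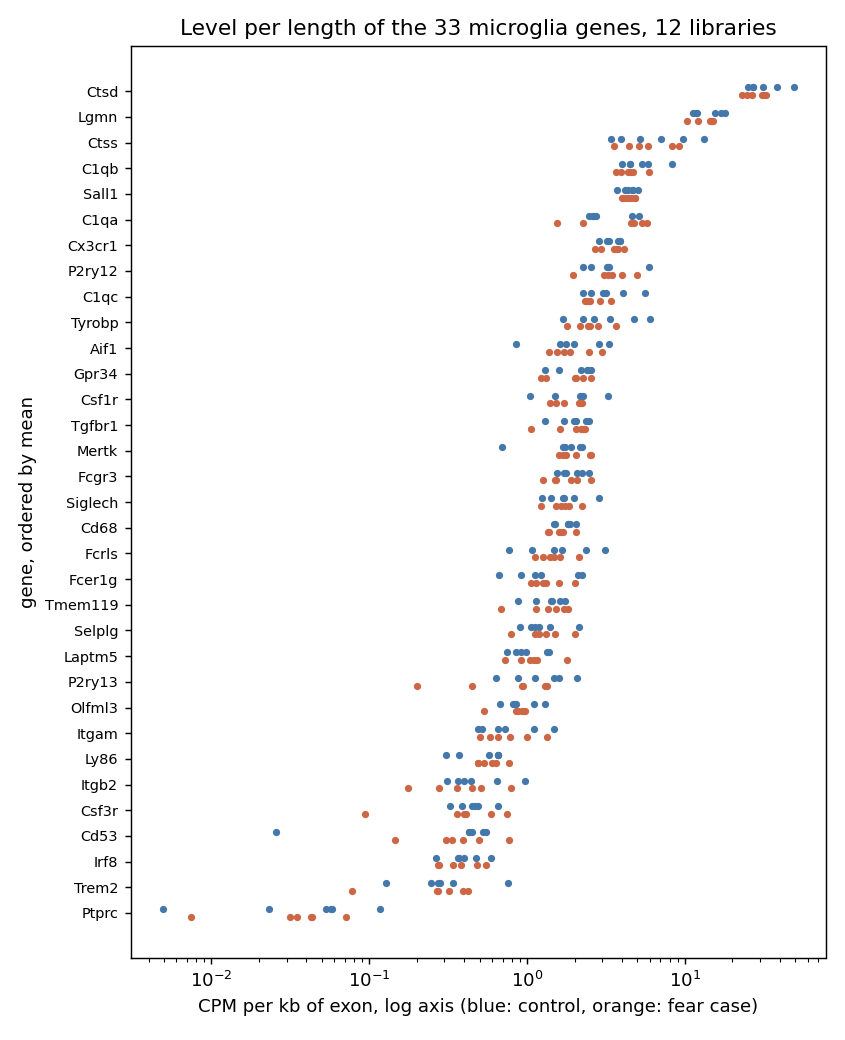
CPM per kilobase of exon (log axis) of the 33 microglia genes in each of the 12 libraries, ordered by mean, with controls in blue and fear case in orange. Ctsd at a mean of 30.6 stands clear of Lgmn at 13.9, and below these the ranges of neighbouring genes overlap.

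All 33 genes had at least 1 count in every library, but the counts were small. Mean counts ran from 16.9 for Cd53 to 1638 for Ctsd, with 19 members under 100 and 9 under 50. Only Ctsd, Lgmn and Sall1 exceeded 20.7 CPM, the median mean level of the tested genes. Counting error alone then gives a coefficient of variation of 24.3% for Cd53, 17.5% for Itgb2, 10.8% for C1qa and 2.47% for Ctsd.

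Among the surface receptors that survey the surroundings, Cx3cr1 was the steadiest. Cx3cr1 ran from 12.8 through a median of 16.0 to 17.4 CPM in controls and from 12.1 through 16.3 to 18.6 CPM in fear case. P2ry12, the ADP receptor that directs microglial processes to injury, ran from 5.78 through 8.22 to 15.2 CPM in controls and from 4.98 through 8.51 to 12.6 CPM in fear case. The groups overlapped for both genes, with control 1 alone at the top for P2ry12. The log2 ratio was -0.00471 for Cx3cr1 (95% interval -0.25 to 0.24) and 0.01 for P2ry12 (-0.43 to 0.46). P2ry13, a second ADP receptor, ran from 1.60 through 3.31 to 5.25 CPM in controls and from 0.511 through 2.37 to 3.39 CPM in fear case, the largest difference of the 33 (log2 ratio -0.58, SE 0.35, adjusted p = 0.764). Fear case 1, with 12 counts, and fear case 5, with 25, were its lowest libraries, and the other fear case libraries lay inside the control range. Gpr34, a receptor for lysophosphatidylserine, gave a log2 ratio of -0.13 (adjusted p = 0.934). P2ry13 (chromosome 3, 59207892 to 59210882) and P2ry12 (chromosome 3, 59216272 to 59262871) are neighbours on the minus strand of GRCm38. P2ry12 shares 9 exon bases with Med12l on the other strand.

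Receptors for growth and survival factors did not pass either. Csf1r, the receptor for Csf1 and Il34 on which microglia depend, ran from 6.02 through 12.6 to 18.9 CPM in controls and from 8.02 through 11.1 to 12.9 CPM in fear case (log2 ratio -0.15, adjusted p = 0.912). Every fear case library lay inside the control range, whose ends were control 5 and control 1. Exons of Csf1r overlap those of Hmgxb3 on the other strand by 873 bases, and reads of the 2 genes could be mixed there if strand was not used. Mertk, a receptor for phosphatidylserine-bridging ligands that astrocytes also make, ran from 3.01 through 7.92 to 9.68 CPM in controls and from 6.94 through 8.30 to 11.1 CPM in fear case (log2 ratio 0.23, adjusted p = 0.842). Control 5 stood alone at the bottom, and without it the log2 ratio was 0.06. Tgfbr1, a receptor for TGF-beta present on many cell types, gave a log2 ratio of -0.04 (adjusted p = 0.979), and Csf3r, the receptor for granulocyte colony-stimulating factor, of -0.09 (adjusted p = 0.981).

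**Figure D2:**
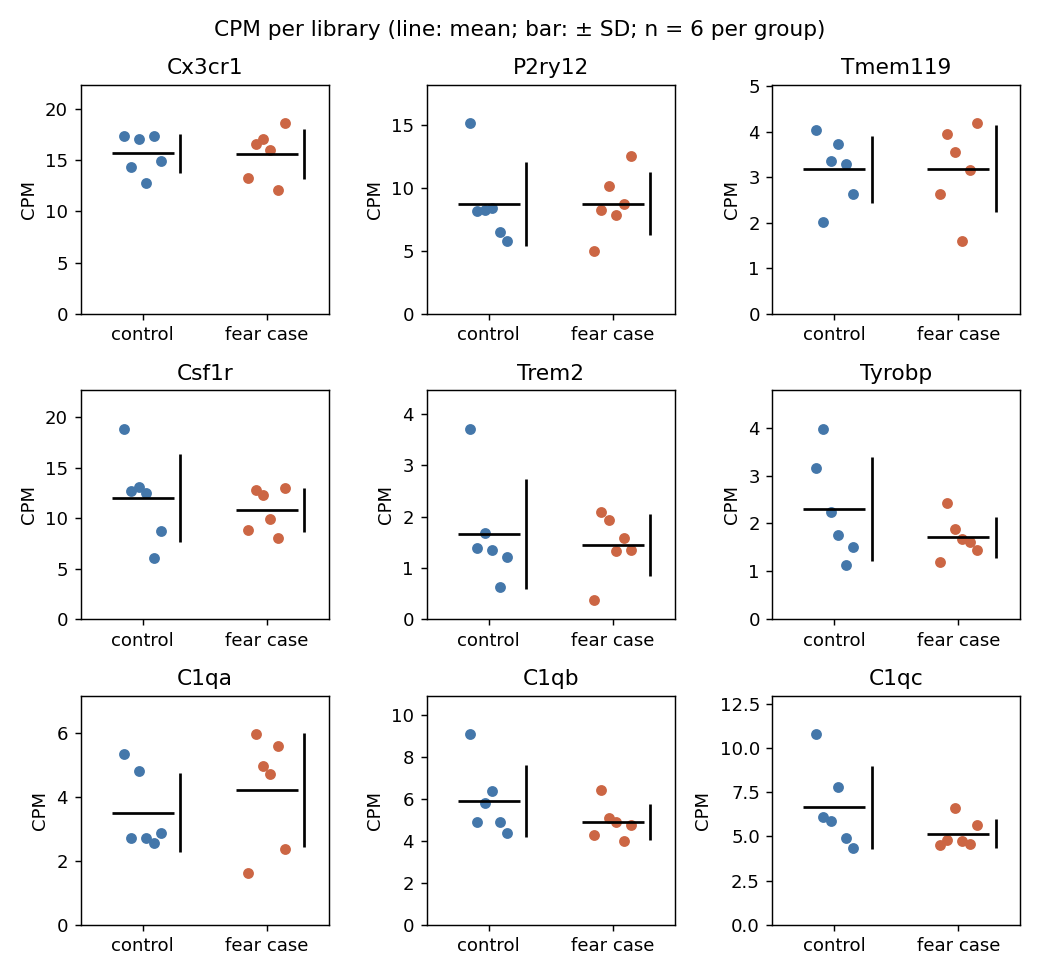
CPM in each library of 9 defining microglia genes, with controls in blue, fear case in orange, the line at the mean and the bar at ± SD (n = 6 per group). The groups overlap in all 9 panels, and a single high control point (control 1) stands out for P2ry12 at 15.2 and Trem2 at 3.72 CPM.

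Further markers of microglia overlapped between the groups, and 0 of them passed. Tmem119 is a membrane protein used to separate parenchymal microglia from other macrophages. It ran from 2.02 through 3.32 to 4.03 CPM in controls and from 1.59 through 3.36 to 4.19 CPM in fear case (log2 ratio 0.01, 95% interval -0.49 to 0.51). Sall1, a transcription factor that keeps microglial identity, ran from 19.6 through 23.7 to 26.4 CPM in controls and from 21.0 through 23.5 to 25.6 CPM in fear case (log2 ratio 0.01, 95% interval -0.18 to 0.20). The range of Sall1 in fear case lay wholly within that of the controls, and its interval was the narrowest of the 33. Sall1 was also the only member that ran against the mean of the other members over the libraries (r = -0.39). How much of its RNA came from microglia was not tested. Siglech, a sialic acid-binding lectin, Fcrls, an Fc receptor-like protein, Selplg, the ligand of P-selectin, and the secreted Olfml3 had log2 ratios from -0.21 (Fcrls) to 0.02 (Selplg), with adjusted p from 0.906 to 0.992. Tmem119 (chromosome 5, 113793729 to 113800516) and Selplg (113818536 to 113832644) lie side by side on the minus strand.

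Trem2 and its partners signal through immunoreceptor tyrosine-based activation motifs. Tyrobp, the adaptor that carries the motif for Trem2, ran from 1.12 through 2.00 to 3.98 CPM in controls and from 1.19 through 1.65 to 2.43 CPM in fear case (log2 ratio -0.42, SE 0.31, adjusted p = 0.799). Trem2, the lipid-sensing receptor, ran from 0.629 through 1.37 to 3.72 CPM in controls and from 0.383 through 1.46 to 2.10 CPM in fear case (log2 ratio -0.20, adjusted p = 0.941). Both overlapped broadly, and the sign for Trem2 turned without control 1 (0.20). Fcer1g, the common gamma chain of Fc receptors, gave a log2 ratio of 0.02, and Fcgr3, a low-affinity IgG receptor, of -0.12. Fcgr3 has stretches nearly identical to other Fc receptor genes, and reads without a unique place went to no gene (67.8 M to 115.4 M such alignments per library in the counter's summary), so its level is uncertain. Fcer1g and Fcgr3 both lie on chromosome 1, at 171229572 to 171234365 and 171051174 to 171064935.

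The C1q chains, which assemble into the complement molecule that tags synapses and debris, are encoded side by side on the minus strand of chromosome 4: C1qb at 136880129 to 136886187, C1qc at 136889804 to 136893065 and C1qa at 136895917 to 136898803. C1qc ran from 4.37 through 5.99 to 10.8 CPM in controls and from 4.51 through 4.77 to 6.59 CPM in fear case (log2 ratio -0.37, SE 0.20, unadjusted p = 0.0770 with edgeR, adjusted p = 0.738). C1qb ran from 4.37 through 5.34 to 9.07 CPM in controls and from 3.97 through 4.82 to 6.42 CPM in fear case (log2 ratio -0.27, adjusted p = 0.795). Without control 1, the highest library for both, these values were -0.17 and -0.10. C1qa ran from 2.56 through 2.79 to 5.35 CPM in controls and from 1.62 through 4.85 to 5.97 CPM in fear case, with a positive log2 ratio of 0.26 (adjusted p = 0.883). The sign for C1qa was negative (-0.32) once a choroid plexus score, the mean log2 CPM of that list, entered the fit. The score ran from 3.74 to 4.74 in controls and from -0.35 to 2.85 in fear case 1 to 5, and was 4.46 in fear case 6. Score and group are therefore hard to separate in that fit.

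The 3 chains did not keep a fixed ratio. Per kilobase, C1qa stood at 0.445 to 0.869 times C1qb in the controls. In fear case 2, 3, 4 and 5 that ratio was 0.972, 1.02, 1.01 and 1.47, and in fear case 1 and 6 it was 0.398 and 0.523. The counts behind the ends were 124 for C1qa and 88 for C1qb in fear case 5, and 38 and 100 in fear case 1. So 4 fear case libraries lay above all controls and 2 lay among or below them; this ratio was picked after its values were seen and has no test. Those 4 are also the fear case libraries with the lowest choroid plexus levels, at 108 to 417 CPM summed, and the part of that in the ratio was not tested. For C1qc over C1qb the ratio ran from 0.563 to 0.704 in controls and from 0.423 to 0.732 in fear case.

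Genes shared with other leukocytes included the widest spread. Itgam, the alpha subunit of complement receptor CR3, gave a log2 ratio of -0.04 (adjusted p = 0.990). Itgb2, its beta subunit, ran from 0.956 through 1.28 to 2.96 CPM in controls and from 0.541 through 1.24 to 2.41 CPM in fear case (log2 ratio -0.30, adjusted p = 0.899). Ptprc had only 2 counts in control 5 and 3 in fear case 5 against 42 in control 1, and its coefficient of variation in controls, 73.1%, was the largest of the 33. The tetraspanin gene Cd53 had 1 count in control 5 and 54 in fear case 6. Their log2 ratios were -0.41 for Ptprc (95% interval -1.47 to 0.65) and 0.06 for Cd53 (-0.91 to 1.04). Without control 1 the value for Ptprc was -0.00695, for Itgb2 -0.027 and for Itgam 0.21.

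Lysosomal genes overlapped between the groups as well. Ctsd ran from 58.8 through 68.6 to 115 CPM in controls and from 53.7 through 67.8 to 76.8 CPM in fear case (log2 ratio -0.22, SE 0.13, adjusted p = 0.763). Lgmn ran from 26.0 through 31.9 to 41.8 CPM in controls and from 23.9 through 33.8 to 35.1 CPM in fear case (log2 ratio -0.06, 95% interval -0.32 to 0.19). Ctss ran from 4.61 through 8.33 to 17.8 CPM in controls and from 4.81 through 7.44 to 12.4 CPM in fear case (log2 ratio -0.21, adjusted p = 0.909). Control 1 was the highest library for Ctsd and Ctss, and without it these 2 values were -0.07 and 0.06. Cd68, a lysosomal glycoprotein of phagocytes, and Laptm5, a lysosomal membrane protein of blood-lineage cells, had log2 ratios of -0.12 and 0.12. Of the remaining members, the calcium-binding protein gene Aif1 (Iba1), Ly86, a partner of a Toll-like receptor homologue, and the transcription factor gene Irf8 had log2 ratios of -0.06, 0.12 and -0.10, with adjusted p from 0.951 to 0.981.

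**Figure D3:**
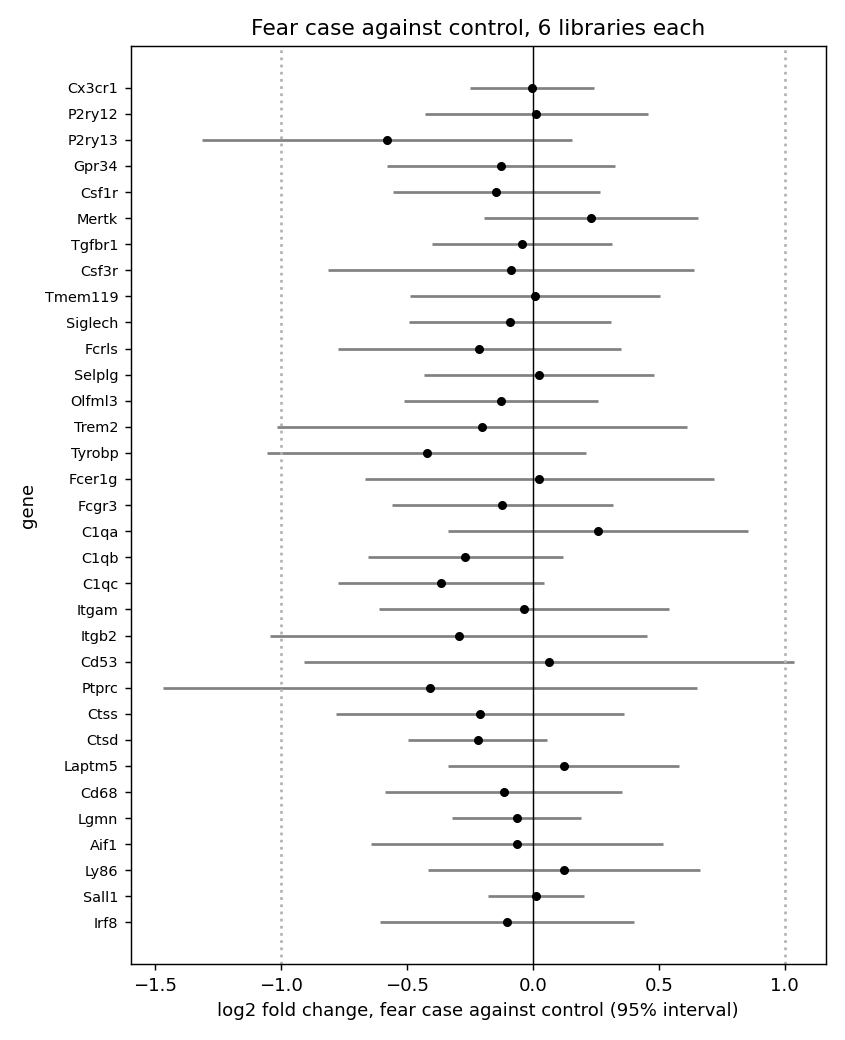
Log2 ratio of fear case against control for the 33 microglia genes with 95% intervals from the quasi-likelihood fit; dotted lines mark 2-fold in either direction. Every interval holds 0; the narrowest is that of Sall1 (-0.18 to 0.20) and the widest that of Ptprc (-1.47 to 0.65).

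The intervals show what sizes these libraries leave possible, gene by gene and without adjustment for their number. All 33 held 0. For 14 genes the interval stayed within 1.5-fold in either direction, Cx3cr1 (0.840 to 1.18 times the control level), Sall1 (0.883 to 1.15), Lgmn (0.801 to 1.14), P2ry12 (0.743 to 1.37) and Tmem119 (0.713 to 1.42) among them. For 27 it stayed within 2-fold. The other 6, P2ry13, Itgb2, Trem2, Tyrobp, Cd53 and Ptprc, had intervals that reach past 2-fold, and for these a change of that size was not excluded at this depth.

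Most members stood high or low in the same libraries, within both groups. Whether genes at large did so to the same degree was not tested. Their mean log2 CPM ran from 1.74 to 2.72 in controls and from 1.60 to 2.39 in fear case, with group means of 2.16 and 2.08. In control 1, 31 of the 33 stood above their own mean over the 12 libraries on the log2 CPM scale, and 14 had their highest CPM of all libraries there. In fear case 2 it was 27 of 33, in control 4 it was 24 and in control 3 it was 22. In fear case 1 it was 3 of 33, and 12 members had their lowest CPM there; in control 6 it was 4 and in control 5 it was 9. High and low libraries thus occurred in both groups. Summed over the 33 genes, the controls ran from 230 through a median of 264 to 386 CPM and fear case from 204 through 264 to 301 CPM. As a share of all gene counts that is 0.0223% to 0.0397% in controls and 0.0205% to 0.0303% in fear case.

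**Figure D4:**
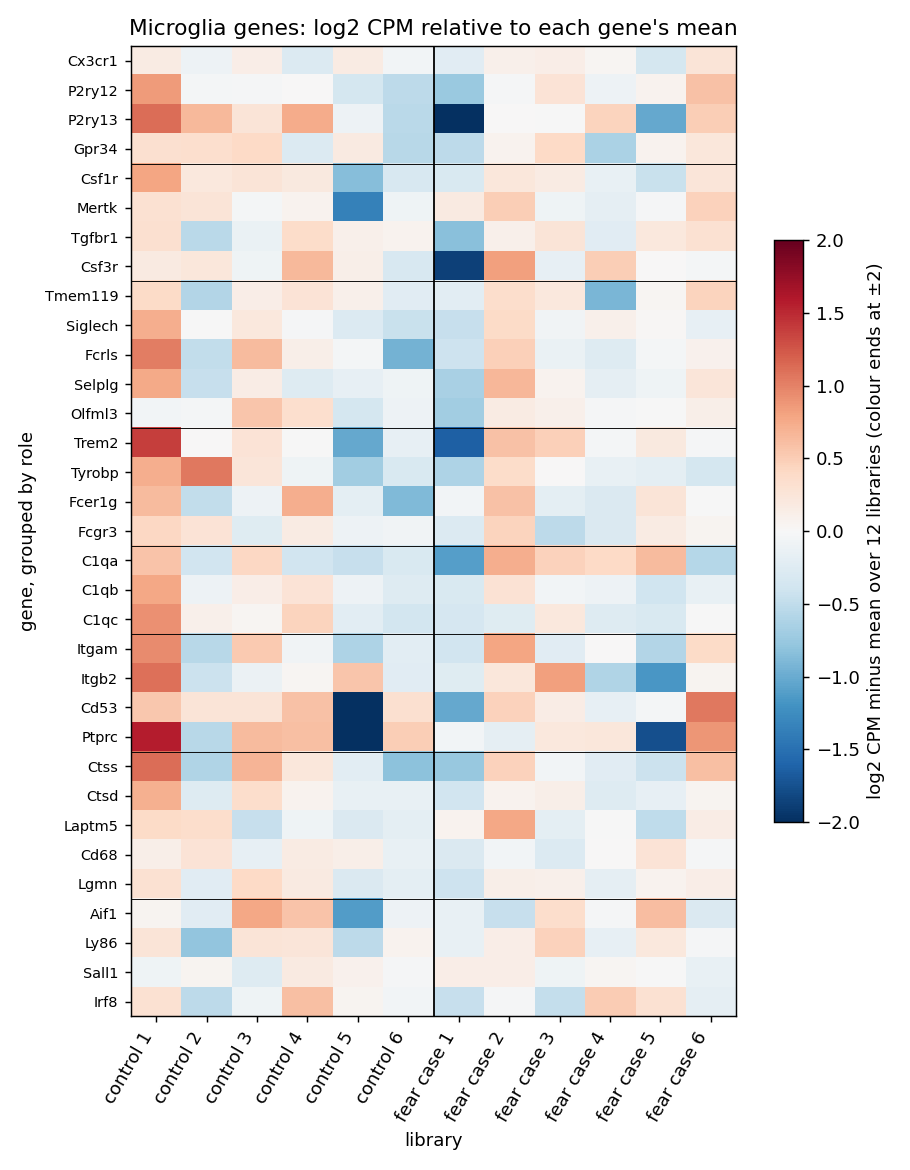
Log2 CPM of each of the 33 microglia genes (rows, grouped by role) in each library (columns, controls left of the line) minus the gene's mean over the 12 libraries. The control 1 column is above the mean for 31 genes and the fear case 1 column below it for 30, while Sall1 hardly moves.

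Across all 528 pairs of members the median Pearson r of log2 CPM over the 12 libraries was 0.40, and 464 pairs were positive. These pairs share libraries and scaling. No test, no value for other genes and no value without control 1 and fear case 1 is given. With the group means taken out the median was also 0.40. Each member was also set against the mean of the other 32. Trem2 (r = 0.89), Ctss (0.87), Ctsd (0.87), Lgmn (0.87), Csf1r (0.86), Siglech (0.85) and P2ry12 (0.84) followed it most closely, while Cd68 (0.15) did so little and Sall1 (-0.39) was the only negative member. Sall1 also varied least within a group, by 10.2% in controls and 7.95% in fear case.

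For 7 pairs of genes whose products work together or whose genes are neighbours, the relation across the 12 libraries was tested by permutation with 100000 resamples, two-sided, and adjusted over the 7. The pairs were added after other results were known. The permutation sets r against 0, not against the median r of 0.40 over all 528 pairs of members. A low p therefore cannot show a relation particular to a pair. C1qb and C1qc gave Pearson r = 0.82 (permutation p = 0.00290, adjusted 0.0203) and Spearman rho = 0.71 (permutation p = 0.0130, adjusted 0.0455). Leaving out control 1 and fear case 2, the 2 libraries farthest from the median of C1qb, r was 0.83; within the groups it was 0.96 in controls and 0.23 in fear case, each over 6 libraries. Trem2 and Tyrobp gave r = 0.70 (permutation p = 0.0114, adjusted 0.0266) and rho = 0.82 (permutation p = 0.00191, adjusted 0.0134), with r = 0.54 without fear case 1 and control 1. For P2ry12 and P2ry13, r was 0.71 (permutation p = 0.0114, adjusted 0.0266) but rho was 0.54 (permutation p = 0.0740, adjusted 0.172). Without control 1 and fear case 1 r was 0.33, so its size over the 12 libraries depended on those 2. Within the groups, with control 1 and fear case 1 included, r was 0.89 in controls and 0.78 in fear case. The other 4 pairs had adjusted permutation p-values of 0.126 to 0.510 for r, namely C1qa with C1qb (r = 0.41), C1qa with C1qc (0.22), Fcgr3 with Fcer1g (0.54) and Itgam with Itgb2 (0.46).

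The spread of the members was set beside that of genes of the same abundance, as a description without a test. The biological coefficient of variation of edgeR, the spread between replicates beyond counting error, was above the trend for that abundance in 23 of the 33 (69.7%), beside 37.5% of all tested genes. The median ratio of a gene's value to its trend was 1.11 over the members and 0.954 over all tested genes. Ctss stood at 0.328 against a trend of 0.181 and Ctsd at 0.162 against 0.103, whereas Sall1 stood at 0.111 against 0.131 and Cx3cr1 at 0.142 against 0.149.

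Levels of other cell types were set beside these. Control 1, the highest library for the microglia genes, was also the highest for the choroid plexus list at 2956 CPM summed and the highest control for 10 astrocyte markers at 2290 CPM. Fear case 2, the third highest for the microglia genes at 301 CPM, had a choroid plexus sum of only 110 CPM and fear case 6 a sum of 2236 CPM at 289 CPM of microglia genes. The 9 neuronal markers summed to 8186 to 8947 CPM in controls and to 8419 to 8854 CPM in fear case, and 0 of the 9 passed, Snap25 and Rbfox3 among them. Of the 10 astrocyte markers, Aqp4 and Gfap included, 0 passed. The myelin genes Mobp and Mbp gave log2 ratios of -0.26 (unadjusted p = 0.0310, adjusted p = 0.618 with edgeR) and -0.17 (adjusted p = 0.709). Their part in the microglia values was not tested, beyond a fit with a choroid plexus score as covariate, in which 0 microglia genes passed and the median log2 ratio was -0.09.

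**Figure D5:**
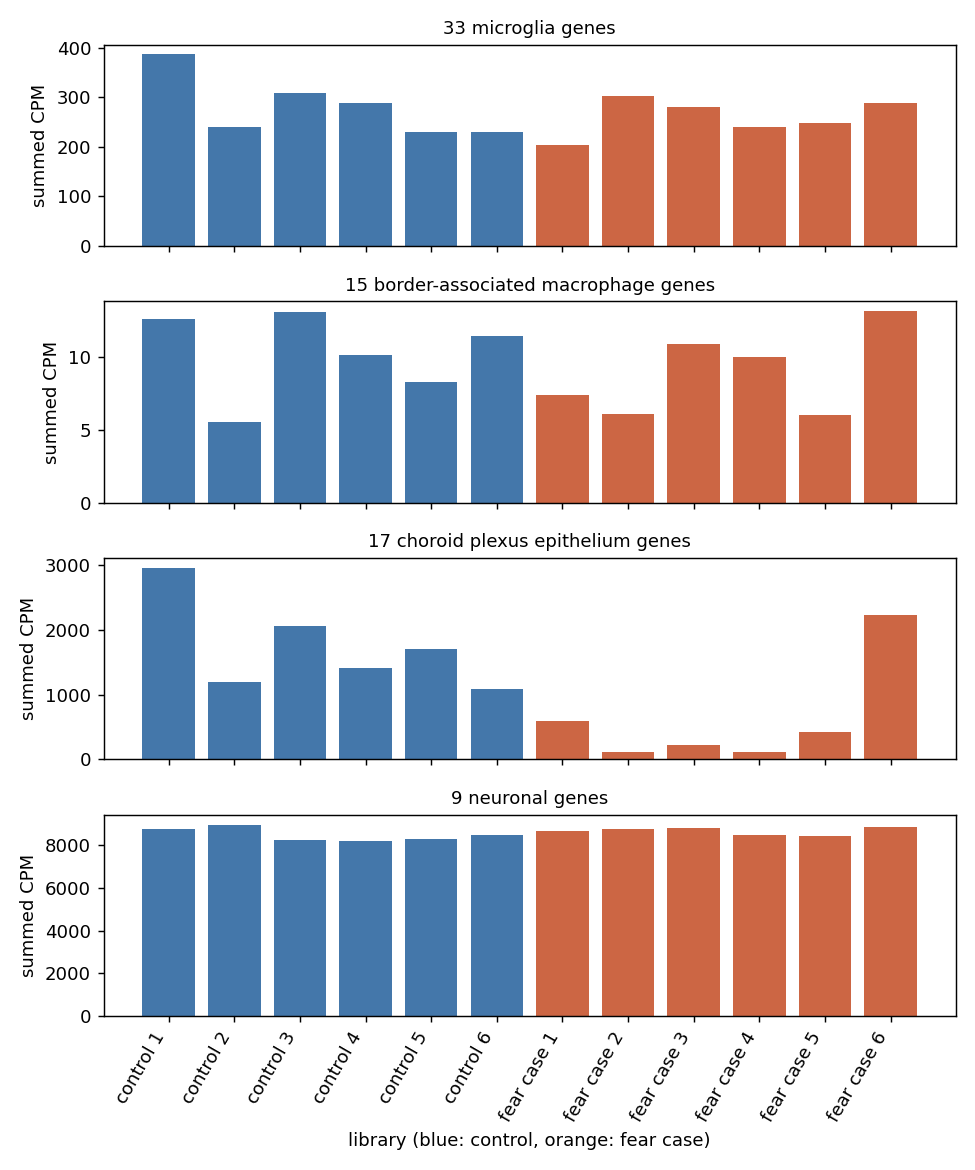
Summed CPM per library of the 33 microglia genes, 15 genes of border-associated macrophages, 17 of the choroid plexus epithelium and 9 of neurons, with controls in blue and fear case in orange. The choroid plexus sum drops to 108 to 587 CPM in fear case 1 to 5, while the microglia sum ranges from 204 to 301 CPM in fear case and from 230 to 386 CPM in controls.

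Macrophages at the brain's borders share many of the 33 genes, so their own markers were counted. Of 15 such genes 5 reached the filter and 0 passed the test, with a summed level of 5.58 to 13.1 CPM in controls and 6.00 to 13.2 CPM in fear case. Mrc1, their mannose receptor, ran from 1.43 through 2.13 to 3.45 CPM in controls and from 0.631 through 1.11 to 2.79 CPM in fear case (log2 ratio -0.56, adjusted p = 0.766 with edgeR). With the choroid plexus covariate it was -0.05, and without fear case 6 it was -0.88. Of the 5 tested genes 3 had negative and 2 positive log2 ratios, with Stab1 at 0.42 (adjusted p = 0.811 with edgeR). Of 12 blood leukocyte genes 1 was tested, with a list sum of at most 3.10 CPM. Of 6 genes of red blood cells and platelets 1 was tested, Alas2, with 20 to 133 counts and a mean of 2.85 CPM. Its log2 ratio was -0.12 (adjusted p = 0.972 with edgeR). The 4 globin genes counted had 0 counts in every library, though these are near-identical copies and alignments without a unique place went to no gene. Cd163, a haemoglobin scavenger receptor of border macrophages, had at most 1.38 CPM in any library. Of 10 endothelial and mural markers, Cldn5 and Pecam1 included, 9 were tested and 0 passed, with 7 negative and a median log2 ratio of -0.13.

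Other genes of microglia and their partners were no different in this respect. Among 32 further microglia-enriched genes, 31 were found, 28 were tested and 0 passed, with 16 negative and a median log2 ratio of -0.04. Dock8, a guanine nucleotide exchange factor of leukocytes, was the only one of them with an unadjusted p under 0.05: it ran from 2.24 through 3.32 to 4.88 CPM in controls and from 4.53 through 4.81 to 6.07 CPM in fear case (log2 ratio 0.56, adjusted p = 0.455 with edgeR). Of 13 ligands for microglial receptors all 13 were tested and 0 passed, with 8 negative, 5 positive and a median log2 ratio of -0.08. Gas6, a ligand of Mertk, gave a log2 ratio of -0.23 (adjusted p = 0.733) and Il34, the neuronal ligand of Csf1r, of -0.22 (adjusted p = 0.769). Csf1, which also binds Csf1r, gave a log2 ratio of 0.19 (adjusted p = 0.817 with edgeR). Several ligands stood above their receptor per length: Gas6 averaged 14.0 CPM per kilobase against 1.89 for Mertk, Cx3cl1, the neuronal fractalkine named here as the partner of Cx3cr1, averaged 61.3 CPM per kilobase against 3.47 for Cx3cr1, and Il34 averaged 5.77 against 1.97 for Csf1r. The means of Csf1 (1.93), Pros1 (0.797) and Tgfb1 (0.305 CPM per kilobase) were below those of Csf1r, Mertk and Tgfbr1 (1.95). Those of Tgfb2 (9.47) and Tgfb3 (2.20 CPM per kilobase) were above that of Tgfbr1. Of 11 further receptors and complement genes 9 were tested and 0 passed, with 4 negative, 5 positive and a median log2 ratio of 0.00811. The ends were Tgfbr2, the co-receptor of Tgfbr1, at -0.31 (adjusted p = 0.743) and C4b at 0.51 (adjusted p = 0.832, both with edgeR).

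Genes of microglial activation were mostly too low to test. Of 20 such genes 7 were tested and 0 passed, and the other 13, which include the cytokine genes Il1b, Tnf and Il6 and the chemokine genes Ccl2, Ccl3 and Ccl4, had at most 33 counts in any library. The 7 tested had 3 negative and 4 positive log2 ratios, with a median of 0.02. Of those tested, Cd63, a tetraspanin of late endosomes, had the lowest p, with a log2 ratio of -0.25 (adjusted p = 0.784). The most abundant were the lipase gene Lpl at 29.1 CPM and Nfkbia, an inhibitor of NF-kappaB, at 13.4 CPM, both also made by other brain cells.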

How the data were processed

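Polyribosomal RNA from hippocampus was profiled in 12 libraries (6 control, 6 fear case, grouped by the sample group label). The deposited files give whole-number counts per gene, 1 file per library, with no scaling applied. Among the tools, cutadapt, TopHat, Bowtie and HTSeq appear in the submitters' processing notes, as does build mm10; their versions, the annotation and the strand setting were not given in the sources used here. The 5 summary lines of the counter were left out; 25.5% to 33.3% of counts fell on no gene. Library pairs within a group differed by more than counting noise (chi-square per degree of freedom at least 8.09), so none was merged.

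Counts were fitted in R 4.3.3 with edgeR 4.0.16: filterByExpr (minimum count 10, total 15), TMM scaling, quasi-likelihood test without covariates, Benjamini-Hochberg adjustment over 14564 genes, calls under 0.05. CPM rests on TMM-scaled library sizes, with a prior count of 2 for log2 CPM. Standard errors are the log2 fold change over the root of F; 95% intervals use the t quantile at the fit's degrees of freedom. At 18.6 M to 44.2 M counts, counting error limits genes of few counts. The scripts were tested on simulated data. Alternatives used DESeq2 1.42.0, limma 3.58.1, other scaling and filters, Rn45s left out, a block, a choroid plexus covariate and each library left out. Lengths and positions are from GENCODE vM21 (GRCm38, the assembly of mm10), where 23384 of 24421 symbols matched; promoters are from RefSeq (GRCm38.p6). Exons of Csf1r overlap those of Hmgxb3 and exons of P2ry12 those of Med12l, both on opposite strands. Exons of the other 31 members overlap those of no matched symbol, and symbols without a match were not checked.

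The members and all lists were chosen with earlier results of these data known. Every member is named; values per library go to the 8 lowest p, the 5 highest per length, 9 defining markers and any member without overlap, and up to 3 genes by p and 2 by level in each other list. The partner pairs, the C1q ratios and the promoter motif were added afterwards.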

Additional observations from a re-analysis of the deposited data

Results flagged for a closer look

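In 5 of the 68 group values checked (each of the 33 genes and their sum, in groups of 6), a single library stood far from the other 5 of its group; chance gives about 1 in 20. P2ry12 stood at 15.2 CPM in control 1 against 5.78 to 8.39 CPM in the other controls. Trem2 stood at 3.72 CPM in control 1 against 0.629 to 1.68 CPM. Cd53 stood at 0.0450 CPM in control 5, where it had 1 count, against 0.744 to 0.955 CPM. Mertk stood at 3.01 CPM in control 5 against 7.38 to 9.68 CPM. Olfml3 stood at 3.28 CPM in fear case 1 against 5.26 to 6.01 CPM in the other fear case libraries.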

How the results depend on the processing

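Under all 21 alternatives 0 of the members passed, and the lowest adjusted p was 0.543 (C1qc without control 6). Their median log2 fold change stayed between -0.10 and -0.07 in the 9 settings that kept all libraries, and between -0.15 and 0.02 with a library left out, above 0 only without control 1. The count over all genes, 15, was 37 with no filter on low counts, 59 with DESeq2 and 6 with the choroid plexus covariate, and 9 to 128 with a library left out, the highest without fear case 6 and the lowest without control 3 or fear case 2. Same-numbered libraries of the 2 groups are not stated to be paired and did not deviate together (r from -0.17 to 0.05, 2 of 12 libraries closest to their own number); with the number as a block 18 genes and 0 members were called.

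Directions of members were not fixed: in 71 of 691 member values the sign turned, in 22 genes, C1qa, Ptprc, Fcrls, Ctss and Trem2 among them. With limma-voom Cx3cr1 was 0.00124 and Itgam 0.049, and with the block Tmem119 was -0.016. With the choroid plexus covariate Cx3cr1 was 0.033, Aif1 0.010, C1qa -0.32, Ctss 0.00201, Laptm5 -0.083, Gpr34 0.010, Selplg -0.056, Sall1 -0.093, Fcer1g -0.025, Ptprc 0.039 and Tgfbr1 0.031. With a library left out the ranges that cross 0 were Cx3cr1 -0.066 to 0.059, P2ry12 -0.13 to 0.24, Tmem119 -0.093 to 0.14, Csf1r -0.29 to 0.032, Aif1 -0.23 to 0.12, Itgam -0.23 to 0.21, Trem2 -0.38 to 0.20, Ctss -0.38 to 0.058, Laptm5 -0.060 to 0.22, Siglech -0.19 to 0.085, Fcrls -0.37 to 0.033, Selplg -0.14 to 0.22, Cd53 -0.25 to 0.23, Sall1 -0.034 to 0.052, Irf8 -0.23 to 0.030, Fcer1g -0.12 to 0.22, Tgfbr1 -0.14 to 0.075, Lgmn -0.13 to 0.013 and Csf3r -0.31 to 0.12. The cause was not tested. A filter of 1 CPM in 6 libraries leaves 31 members.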
